A study of Mus musculus with 4 samples.

Results

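Retinoic acid, the active form of vitamin A, is made and destroyed inside cells, and 9 genes of its metabolism and response were followed here in fibroblasts undergoing reprogramming to hepatocyte-like cells. The genes were Rbp4, Stra6, Crabp1, Crabp2, Dhrs3, Aldh1a2, Cyp26b1, Cyp26a1 and Rarb. They were taken by name from the 55397 genes listed, as genes chosen from results in which the comparison of the groups was already known, so their differences between the groups are given as a description, without p-values, and their calls in the fit over all genes support nothing. All 9 were found, 1 row each, and 8 of them averaged 10 or more normalized counts across libraries and passed the filter on low values, with Cyp26a1 below it.

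The libraries came from primary mouse embryonic fibroblasts (MEFs) of C57BL/6J embryos at E13.5 in which both Prox1 alleles were floxed (Prox1 fl/fl), and all of them received a lentivirus for the 4-in-1 factors, which convert fibroblasts into induced hepatocytes. In addition, 2 libraries received active Cre-GFP (labelled Prox1 KO) and 2 received dCre-GFP, a recombinase without activity (labelled WT Prox1 control, here ΔCre controls). RNA was collected at day 14 and sequenced in bulk. No library with active Cre on intact alleles was analysed, so loss of PROX1 and activity of Cre cannot be told apart. The labels number the libraries 1 and 2 in each group but do not say that they come from separate cultures or embryos. The p-values hold for these libraries only. In the main limma fit, libraries with the same number were treated as a pair. Its p-values and standard errors rest on how far the 2 pairs of a gene disagree, moderated towards the trend over all genes. A standard error can thus be smaller than the disagreement of the pairs implies. Each library held between 42469031 and 48524008 reads on genes, recovered from the normalized counts. Prox1 itself had 70 and 63 reads in the KO-labelled libraries and 66 and 24 in the ΔCre controls, with a log2 fold change of 0.75 (standard error, SE, 0.27, limma adjusted p = 0.0936). The count of the whole gene was not lower in the KO-labelled libraries, and every direction below rests on the labels. A count over the whole gene does not show whether its floxed part was removed. The defining fibroblast markers were high, with Col1a1 between 251990 and 300038 normalized counts, and hepatocyte markers were uneven, with Alb between 3838 and 5021 and Tat and Apoc3 at most 2.75.

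Vitamin A circulates as retinol on RBP4, enters cells through membrane receptors such as STRA6, and is oxidized first to retinaldehyde and then, by ALDH1A enzymes, to retinoic acid. DHRS3 reduces retinaldehyde back to retinol, and CYP26 enzymes break retinoic acid down. In the cytoplasm retinoic acid is bound by CRABP1 and CRABP2, and in the nucleus it activates receptors of the RAR family paired with RXRs, which sit on direct repeats of a hexamer in DNA. In the liver, hepatocytes secrete RBP4 and stellate cells store retinol as esters.

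Known direct targets of retinoic acid receptors are in the set, Rarb and Cyp26a1, and their promoters are shown because their windows hold a match to the receptor's repeat while their transcripts were scarce. Windows of 300 bases, from 250 before to 50 after a transcript start, came from RefSeq on GRCm38.p6 and were found for 8 of the 9 genes, in 14 windows. Crabp2 had no window, so its promoter was not searched for any of the repeats below. A search on either strand for pairs of receptor hexamers in the same orientation with 5 bases between them (DR5) matched the windows of Rarb and Cyp26a1 and no other window of the 14. The hexamers searched were AGGTCA and its variant AGTTCA, and the forms that begin with G, which are GGGTCA and its variant GGTTCA. Over all 32851 windows, 0.0974% held a DR5 match. With 2 bases between the hexamers (DR2, in 0.268% of all windows) or 1 base (DR1, in 0.222%), 0 of the 14 windows matched. Each DR5 match contains a pair of the single hexamers, which occur in 43.7% of all windows. The Rarb window (chr14:16575427-16575726, minus strand) holds the match on the strand of the gene from base -53 to base -37 before the start. The Cyp26a1 window (chr19:37697558-37697857, plus strand) holds it on the opposite strand from base -32 to base -16. Read 5′ to 3′ along the repeat, the matches (chr14:16575513-16575529 and chr19:37697776-37697792) are as follows.
Rarb DR5: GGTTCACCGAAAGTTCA
Cyp26a1 DR5: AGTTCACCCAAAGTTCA
In the full windows, read 5′ to 3′ on the strand of each gene, capitals mark the DR5 match. The window of Cyp26b1 (chr6:84593761-84594060, minus strand), the relative of Cyp26a1 with abundant transcripts, is set beside them and holds 0 of these hexamers.
Rarb: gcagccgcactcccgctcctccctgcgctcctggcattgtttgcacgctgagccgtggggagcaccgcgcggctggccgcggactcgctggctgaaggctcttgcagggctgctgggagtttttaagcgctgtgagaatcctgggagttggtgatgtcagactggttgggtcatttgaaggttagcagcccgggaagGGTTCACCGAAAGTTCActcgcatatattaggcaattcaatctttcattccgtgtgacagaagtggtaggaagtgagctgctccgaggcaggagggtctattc
Cyp26a1: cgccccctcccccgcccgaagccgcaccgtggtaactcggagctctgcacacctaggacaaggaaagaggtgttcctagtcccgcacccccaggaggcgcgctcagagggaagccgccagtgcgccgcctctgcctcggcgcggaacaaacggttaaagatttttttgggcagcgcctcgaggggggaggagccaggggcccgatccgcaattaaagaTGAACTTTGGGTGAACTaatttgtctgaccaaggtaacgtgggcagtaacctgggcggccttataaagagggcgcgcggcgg
Cyp26b1: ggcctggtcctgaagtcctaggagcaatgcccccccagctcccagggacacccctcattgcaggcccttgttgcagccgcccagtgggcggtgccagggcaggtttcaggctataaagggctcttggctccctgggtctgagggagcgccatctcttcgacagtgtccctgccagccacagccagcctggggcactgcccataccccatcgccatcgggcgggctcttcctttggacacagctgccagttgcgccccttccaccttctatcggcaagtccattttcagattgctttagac
A match describes the letters of the window and was not tested for binding.

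**Figure D1:**
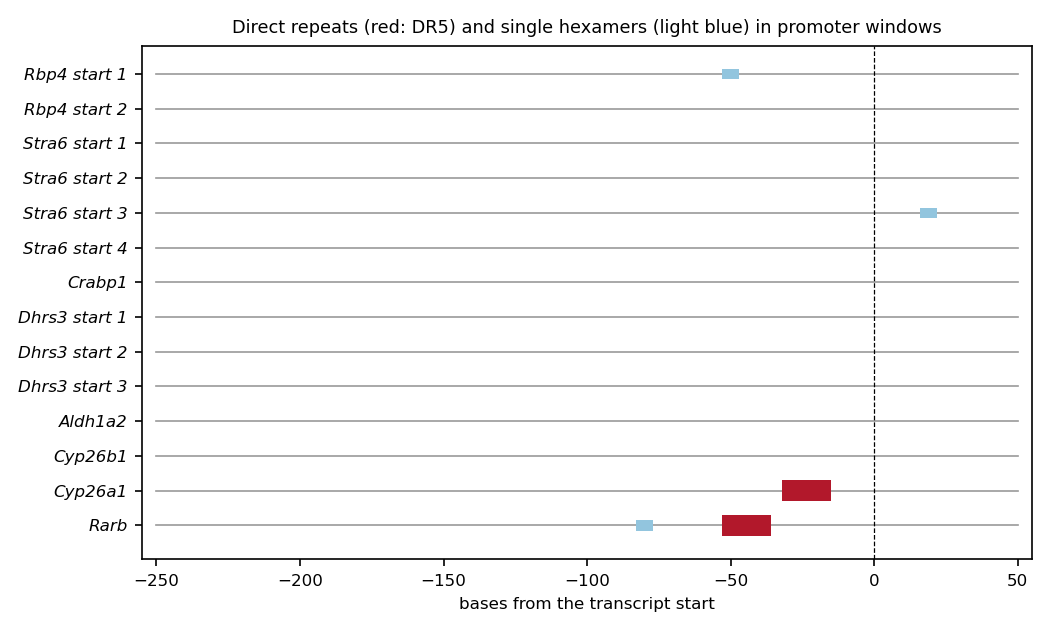
Positions of direct repeats (red, DR5) and of single hexamers (light blue) along the 14 promoter windows of 8 of the genes, in bases from the transcript start (dashed line at 0), with 1 line for each annotated start. The DR5 matches lie from -53 to -37 in Rarb and from -32 to -16 in Cyp26a1, and the other 12 windows hold none.

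The 9 genes spanned a wide range of levels. Set per length, as normalized counts per kb of annotated exon, Crabp1 was the highest, with a mean over the 4 libraries of 5170 and a range from 3136 to 6971. Rbp4, with a mean level of 957 per kb, Cyp26b1, with 950.7, and Crabp2, with 896, followed, and the ranges of these neighbours in the order overlapped. Cyp26b1 was above Rbp4 and Crabp2 per kb in both KO-labelled libraries and below both genes in both controls. Dhrs3 came next at a mean of 422 per kb, then Aldh1a2 at 166, Rarb at 33.4, Stra6 at 7.55 and Cyp26a1 at 1.40, and from Crabp2 downwards the ranges of neighbouring genes did not overlap. Among enzymes that make retinoic acid, the level per kb of Aldh1a1 was 12.7 to 16.0 times that of Aldh1a2 in each library. Among enzymes that break it down, Cyp26c1, which lies 4.4 kb from Cyp26a1 on chromosome 19, had a mean level of 4.58 per kb. Among the receptors, Rarg had a mean level of 1146 per kb and Rara 560, so Rarb, at 0.0196 to 0.0417 times the level per kb of Rarg, was the least abundant of the RAR genes in every library.

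**Figure D2:**
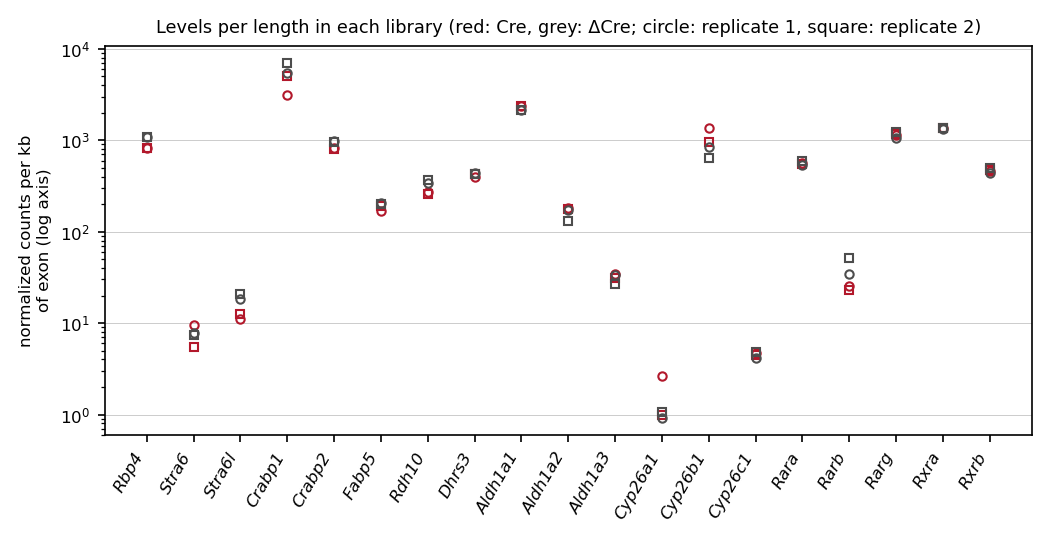
Level of each gene as normalized counts per kb of exon on a log axis, with 1 point for each library (red, Prox1 KO label; grey, ΔCre control; circles, replicate 1; squares, replicate 2). Crabp1 is highest, at 3136 to 6971 per kb, and Cyp26a1 lowest, at 0.926 to 2.62 per kb.

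Of the 8 genes above the filter, 1 was past an adjusted p of 0.05 from limma as higher in the KO-labelled libraries and 4 as lower, where the background over 15809 genes was 11.4% (5.09% higher and 6.29% lower). DESeq2 with the replicate block called 1 higher and 2 lower of these 8, without Rarb and Crabp2, and limma without the block called 0. In 6 of the 8 the groups did not overlap, 2 above and 4 below the controls, where the background was 44.4% of genes (21.8% above and 22.6% below). These counts are printed as a description, since the genes were chosen with this comparison known. In bulk RNA, fewer cells of a type and less RNA per cell cannot be told apart.

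**Figure D3:**
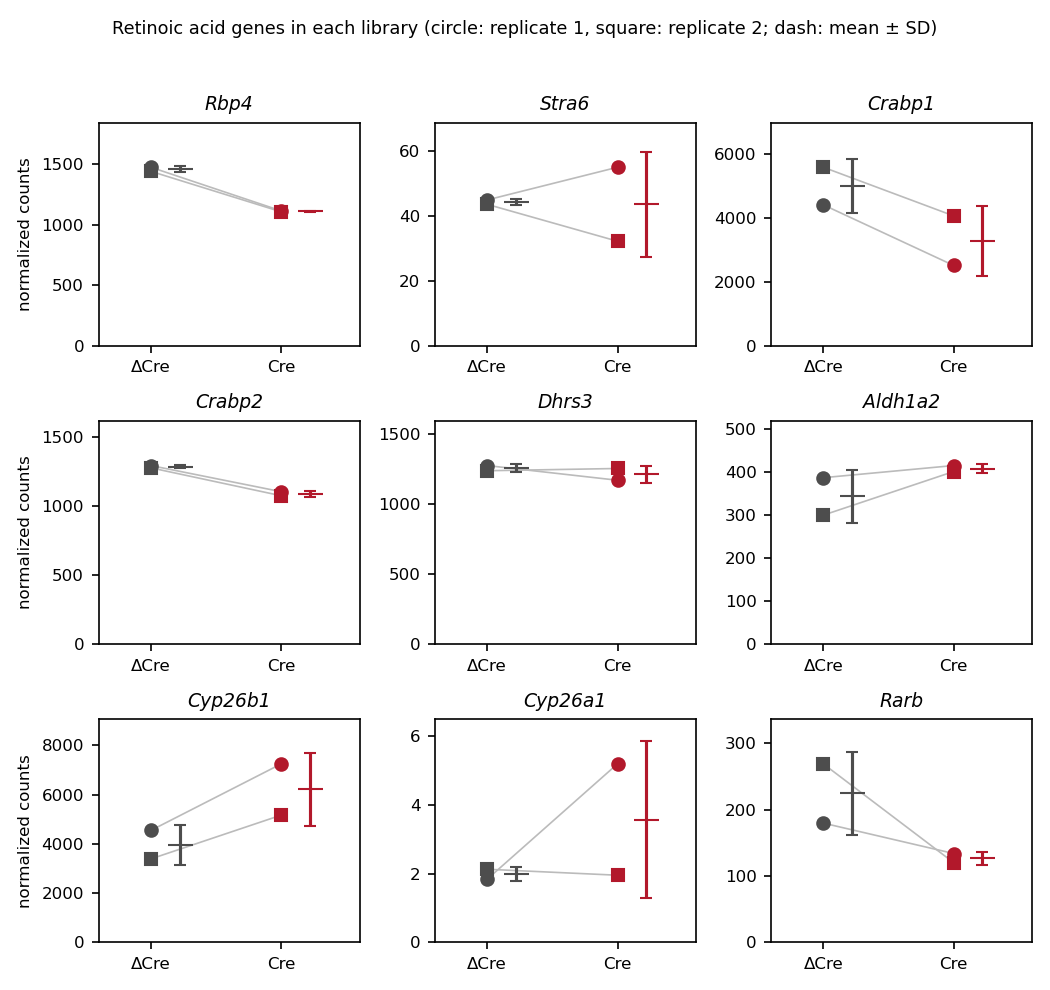
Normalized counts of the 9 genes in each library, on linear axes from 0, for the ΔCre controls (grey) and the KO-labelled libraries (red, Cre), where grey lines join libraries with the same replicate number, and dashes with bars give the mean ± SD of 2 libraries. Cyp26b1 is higher in both pairs, Rarb, Crabp1, Crabp2 and Rbp4 are lower in both, and Stra6, Dhrs3 and Cyp26a1 differ in direction between the pairs.

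Rbp4 (ENSMUSG00000024990; GRCm38 chromosome 19, 38116629 to 38125281), the plasma carrier of retinol, had 1115 and 1107 normalized counts in the KO-labelled libraries and 1476 and 1442 in the ΔCre controls. The libraries of each group lay close together and the groups did not overlap. The log2 fold change was -0.39 (SE 0.06), with -0.40 in pair 1 and -0.38 in pair 2. Most hepatocyte markers were lower too, but Alb, with overlapping groups, was not called (log2 fold change -0.10, limma adjusted p = 0.158). Of the 10 markers listed, 6 of the 8 tested were lower past an adjusted p of 0.05 from limma and 0 higher, and their summed level was 18886 to 20709 normalized counts in the KO-labelled libraries and 24959 to 27832 in the controls. Of 8 epithelial markers, all tested, 7 were lower and 0 higher, with sums of 8624 to 9514 in the KO-labelled libraries and 13773 to 19030 in the controls. Their part in the Rbp4 difference was not tested. Of 10 stellate cell markers, 8 were tested, 2 were higher and 0 lower, and of 10 fibroblast markers 0 were higher and 4 lower. Of 6 macrophage markers, with Adgre1 and Tyrobp at 0 in all libraries, 3 were tested and 1 was lower, and of 6 endothelial markers, with Cldn5 at 0, 3 were tested and 1 was higher.

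Stra6 (ENSMUSG00000032327; chromosome 9, 58063788 to 58153996), a membrane receptor for RBP4, had few reads. It had 55.1 and 32.3 normalized counts in the KO-labelled libraries and 45.0 and 43.6 in the controls. The controls lay between the other libraries, and the difference was 0.29 on the log2 scale in pair 1 and -0.42 in pair 2, for a fitted value of -0.07 (SE 0.27).

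Genes of the retinoid pathway outside the chosen genes were also tested, in lists by role. These lists and the marker lists were drawn up with earlier results of these data known as well. Their adjusted p-values are therefore not independent of that choice, here and below, and describe these libraries only. Of 8 other genes of retinol uptake and storage 5 were tested, and 3 were lower and 0 higher in the KO-labelled libraries. Stra6l, a second RBP4 receptor, fell from 188 ± 15.5 to 114 ± 10.02 normalized counts (SD, n = 2 each), which is -0.72 in log2 units (SE 0.15, limma adjusted p = 0.00576). Ttr, the plasma partner of RBP4 and also one of the hepatocyte markers, fell by 0.90 on the log2 scale (limma adjusted p = 0.00105), and the pairs gave -0.66 and -1.15. Dgat1, which can esterify retinol, had 738 and 772 against 762 and 695 normalized counts and was not past the threshold (limma adjusted p = 0.74). Lrat, the enzyme that esterifies retinol in stellate cells, had 0 counts in each KO-labelled library and 1.84 and 1.06 in the controls.

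Crabp1 (ENSMUSG00000032291; chromosome 9, 54764748 to 54773110), a cytoplasmic carrier of retinoic acid, had 2515 and 4067 normalized counts in the KO-labelled libraries and 4414 and 5591 in the controls. Each KO-labelled library was below both controls, and in each group replicate 2 was the higher one. The log2 fold change was -0.64 (SE 0.06), with -0.81 in pair 1 and -0.46 in pair 2.

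Crabp2 (ENSMUSG00000004885; chromosome 3, 87948666 to 87953376), the carrier that hands retinoic acid to its nuclear receptors, had 1102 and 1072 normalized counts in the KO-labelled libraries and 1291 and 1274 in the controls. The groups did not overlap, and the libraries within each group lay close together. The log2 fold change was -0.24 (SE 0.06), with -0.23 in pair 1 and -0.25 in pair 2. Per length, the ratio of Crabp1 to Crabp2 was 3.76 and 6.25 in the KO-labelled libraries and 5.64 and 7.23 in the controls.

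Dhrs3 (ENSMUSG00000066026; chromosome 4, 144892827 to 144928209), which turns retinaldehyde back into retinol, had 1170 and 1254 normalized counts in the KO-labelled libraries and 1275 and 1238 in the controls. The groups overlapped, and the log2 difference was -0.12 in pair 1 and 0.02 in pair 2, for a fitted value of -0.05 (SE 0.06). Of 17 other genes of retinol oxidation, 13 were tested, 1 of them rose and 1 fell. Rdh10, which makes retinaldehyde from retinol, fell from 1475 ± 71.2 to 1097 ± 30.4 normalized counts (SD, n = 2 each), which is -0.43 in log2 units (SE 0.06, limma adjusted p = 0.00035). Dhrs9, another retinol dehydrogenase, rose from 1099 ± 51.4 to 1351 ± 23.6 (SD, n = 2 each), which is 0.30 in log2 units (SE 0.06, limma adjusted p = 0.00528). Adh5 and Rdh11, which had the highest means of this list over the 4 libraries, had log2 fold changes of -0.04 and -0.07 (limma adjusted p = 0.622 and 0.498).

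Aldh1a2 (ENSMUSG00000013584; chromosome 9, 71215789 to 71296243), which makes retinoic acid, had 416 and 402 normalized counts in the KO-labelled libraries and 387 and 300.2 in the controls. The groups did not overlap, but the replicate 1 libraries differed little, and the log2 difference was 0.10 in pair 1 and 0.42 in pair 2, for a fitted value of 0.26 (SE 0.11). Aldh1a2 is also abundant in mesothelium, and of 9 mesothelial markers 2 of the 7 tested were higher and 2 lower past the threshold, with a summed level of 10695 to 10790 normalized counts in the KO-labelled libraries and 11575 to 15529 in the controls. That sum rests mostly on Msln and Krt19, which were lower, and Krt19 is also among the epithelial markers. Upk1b and Muc16 were the higher ones, and the median log2 fold change of the 7 was 0.52. Wt1, a defining marker of that tissue, had 1.84 to 8.80 normalized counts. The part of these cells in the Aldh1a2 values was not tested. Of 5 other genes for retinaldehyde oxidation or retinoic acid breakdown, 3 were tested, 1 rose and 0 fell. Aldh1a1, a second enzyme of this step, rose to 11794 ± 47.3 normalized counts from 10585 ± 174 in the controls (SD, n = 2 each), which is 0.16 in log2 units (SE 0.04, limma adjusted p = 0.0168). Its close relative Aldh1a7 had a log2 fold change of 0.10 (limma adjusted p = 0.144), and 0.0443% of the 100-base windows of the longest Aldh1a1 transcript also occur in it.

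Cyp26b1 (ENSMUSG00000063415; chromosome 6, 84571414 to 84593908), which breaks retinoic acid down, had the largest positive difference of the 8 genes above the filter. It had 7249 and 5168 normalized counts in the KO-labelled libraries and 4546 and 3389 in the controls. Each KO-labelled library was above both controls, and in each group replicate 1 was the higher one. The KO-labelled libraries were 1.56-fold higher, a log2 fold change of 0.64 (SE 0.04), with 0.67 in pair 1 and 0.61 in pair 2. Per length, Cyp26b1 was 7.38 and 5.44 times as high as Aldh1a2 in the KO-labelled libraries and 4.96 and 4.78 times as high in the controls.

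Cyp26a1 (ENSMUSG00000024987; chromosome 19, 37697798 to 37701536), the enzyme of the same family whose promoter holds the DR5 match, had 5 and 2 reads in the KO-labelled libraries and 2 and 2 in the controls. At this depth a difference between the groups was not detectable. Cyp26a1 lies 415 kb from Rbp4 on chromosome 19, and Crabp1, Stra6 and Aldh1a2 lie on chromosome 9.

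Rarb (ENSMUSG00000017491; chromosome 14, 16430839 to 16819156), the receptor gene whose promoter holds the other DR5 match, had the largest negative difference of the 8 genes. It had 134 and 120.2 normalized counts in the KO-labelled libraries and 180 and 269 in the controls. The groups did not overlap, the KO-labelled libraries lay close together, and the control of replicate 2 was the highest. The log2 fold change was -0.79 (SE 0.17), with -0.42 in pair 1 and -1.16 in pair 2. Of the annotated exonic length of Rarb, 34.1% overlaps exons of Top2b on the opposite strand, and 50% of all stretches of 100 bases in its longest transcript occur in Top2b. The libraries mark the strand, but whether counting used it is not given in the sources used here, so reads of the overlap may not be separated. Top2b had 5439 to 5966 normalized counts in the 4 libraries and a log2 fold change of 0.02 (SE 0.05, limma adjusted p = 0.866).

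Of 13 genes for other receptors and their cofactors, 12 were tested, 2 rose and 0 fell, with a median log2 fold change of 0.01. Rara had 2494 and 2387 normalized counts in the KO-labelled libraries and 2329 and 2560 in the controls, and its log2 fold change was -0.0011 (SE 0.05, limma adjusted p = 0.994). Rarg had a log2 fold change of 0.0048 (SE 0.05, limma adjusted p = 0.968) and Rxra, the most abundant partner receptor, 0.02 (SE 0.04, limma adjusted p = 0.802). Ppard, a nuclear receptor of fatty acids that can also respond to retinoic acid, rose by 0.20 on the log2 scale (limma adjusted p = 0.0077).

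Among 22 genes known to respond to retinoic acid, 18 were tested, 2 rose and 1 fell. Tgm2, tissue transglutaminase, rose to 11356 ± 31.2 normalized counts from 9477 ± 669 in the controls (SD, n = 2 each), which is 0.26 in log2 units (SE 0.04, limma adjusted p = 0.00101), and 14.8% of the windows of its longest transcript occur in other genes. Rai14, an actin-binding protein first found as a retinoic acid-induced gene, rose by 0.14 (limma adjusted p = 0.0325). Rarres2, the precursor of the adipokine chemerin, fell by 0.72 (limma adjusted p = 0.0446), a call that passed in 3 of 9 settings and was lost in edgeR, DESeq2 and 4 others, with an adjusted p between 0.000879 and 0.585. It had 55.1 and 149 normalized counts in the KO-labelled libraries and 133 and 168 in the controls, so the groups overlapped and the log2 difference was -1.26 in pair 1 and -0.18 in pair 2. Of the windows of its longest transcript, 28.9% occur in Lrrc61. Hoxb1, Cdx1 and Stra8 had at most 0.977 normalized counts in any library.

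Over all 65 of these retinoid pathway genes outside the 9, 51 were tested, 6 rose and 5 fell, with a median log2 fold change of -0.0011 against -0.0022 over all genes tested. These are 11 calls among 51 genes, where the background was 1798 calls among 15809 genes, or 11.4%. Since the lists were drawn up with earlier results of these data known, this count beside the background is a description. Limma without the replicate block called 0 of the 51, with 7 at an unadjusted p under 0.05, and DESeq2 with the block called 3 (Ttr, Rdh10 and Tgm2). The 3 genes called in uptake and storage were lower, and the 2 called among receptors and cofactors were higher. By sign alone, 2 of the 5 tested in uptake and storage were higher, and 5 of the 12 receptors and cofactors were lower.

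**Figure D4:**
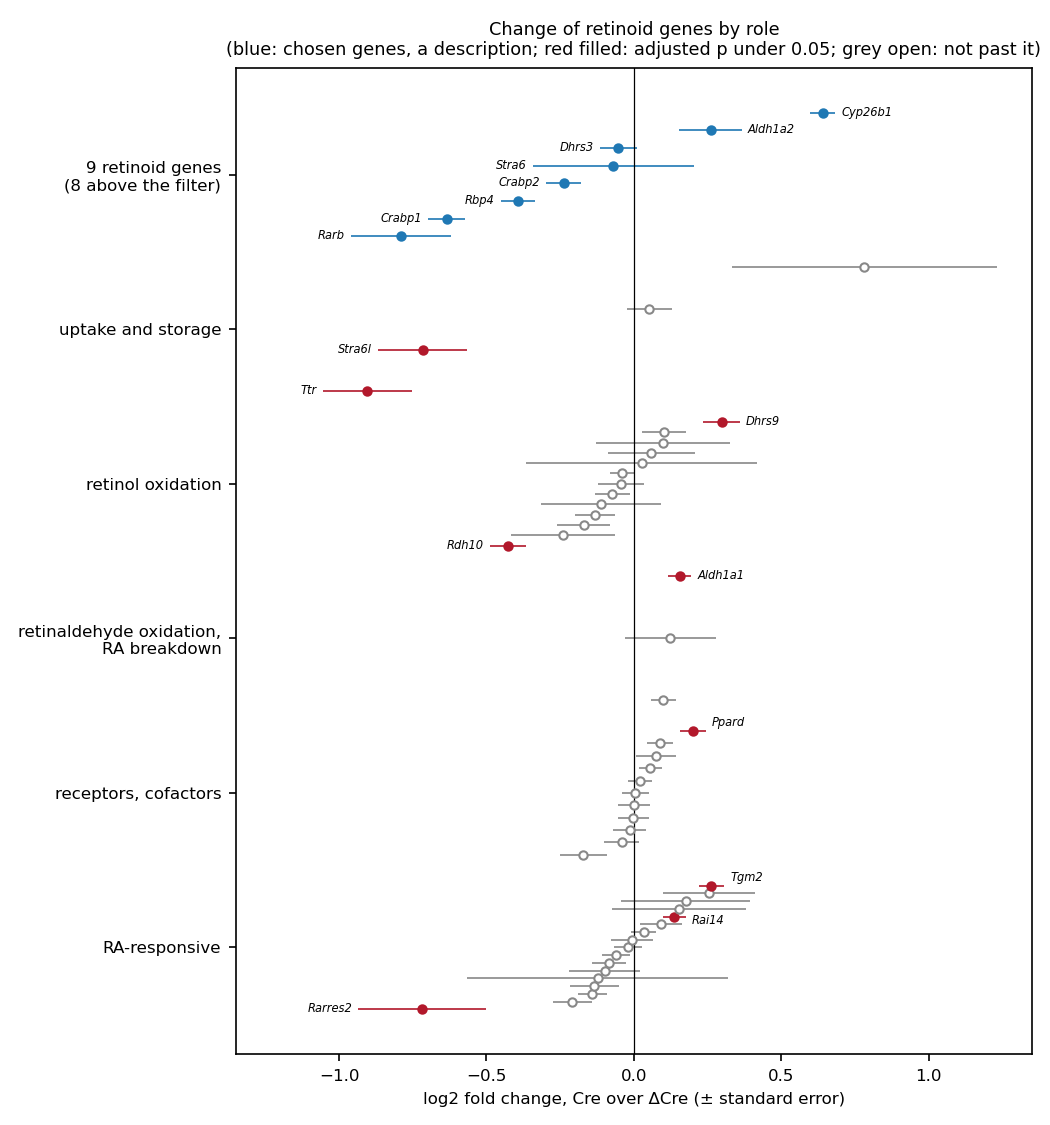
Log2 fold change of each tested gene, Prox1 KO label (Cre) over ΔCre control, with its standard error, arranged by role on the vertical axis. Blue points are the 8 chosen genes above the filter, from -0.79 for Rarb to 0.64 for Cyp26b1, and are shown as a description. Among the other genes shown, red points are past an adjusted p of 0.05 and open grey points are not. Their lists were also drawn up with earlier results of these data known.

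A difference other than the one known when the genes were chosen is that between the libraries numbered 2 and those numbered 1, which share a number across the groups. In the fit it has the same standard error per gene as the comparison of the groups. Its calls are therefore not fully independent of the choice. According to the study's methods the MEF line was a term of the authors' model, but whether the numbers stand for lines is not stated. Xist, transcribed from the inactive X chromosome, had 14495 and 13944 normalized counts in the libraries numbered 1 and 4.89 and 1.06 in those numbered 2. The cells of the numbers 1 and 2 thus differed in Xist in both groups. Sex, source of the cells and other differences between the numbers cannot be told apart in what follows. Of the 8 genes above the filter, 2 differed between the numbers past an adjusted p of 0.05 from limma, 1 higher and 1 lower in replicate 2, where the background was 7.88% of genes (4.39% higher and 3.49% lower). Cyp26b1 was lower in replicate 2, with a log2 difference of -0.46 (SE 0.04, limma adjusted p = 4.89e-06), and the difference was -0.49 in the KO-labelled libraries and -0.42 in the controls. Crabp1 was higher in replicate 2, by 0.52 on the log2 scale (SE 0.06, limma adjusted p = 6.06e-05), with 0.69 in the KO-labelled libraries and 0.34 in the controls. For Cyp26b1 the difference between the numbers was thus 0.46 in size beside 0.64 between the groups, and for Crabp1 0.52 beside 0.64. The other 6 were not past the threshold, among them Rarb with 0.21 (SE 0.17, limma adjusted p = 0.554), Rbp4 with -0.02 (SE 0.06) and Crabp2 with -0.03 (SE 0.06). Among the 51 pathway genes tested, 9 differed between the numbers, 3 higher and 6 lower in replicate 2. Some of them were also called between the groups. Ppard and Rai14 had log2 differences between the numbers of -0.17 and -0.14 (limma adjusted p = 0.0273 and 0.0409), beside 0.20 and 0.14 between the groups. For Rarres2 the difference between the numbers was 0.88 (limma adjusted p = 0.02), beside -0.72 between the groups. Aldh1a7 and Rarres1, a retinoic acid-responsive gene, had log2 differences of -0.31 and -0.36 (limma adjusted p = 0.000136 and 0.00385). Meis1 and Meis2, homeobox genes that respond to retinoic acid, were higher in replicate 2 by 0.85 and 0.73 (limma adjusted p = 0.000279 and 4.14e-06), while between the groups they were not past the threshold (limma adjusted p = 0.681 and 0.0569).

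**Figure D5:**
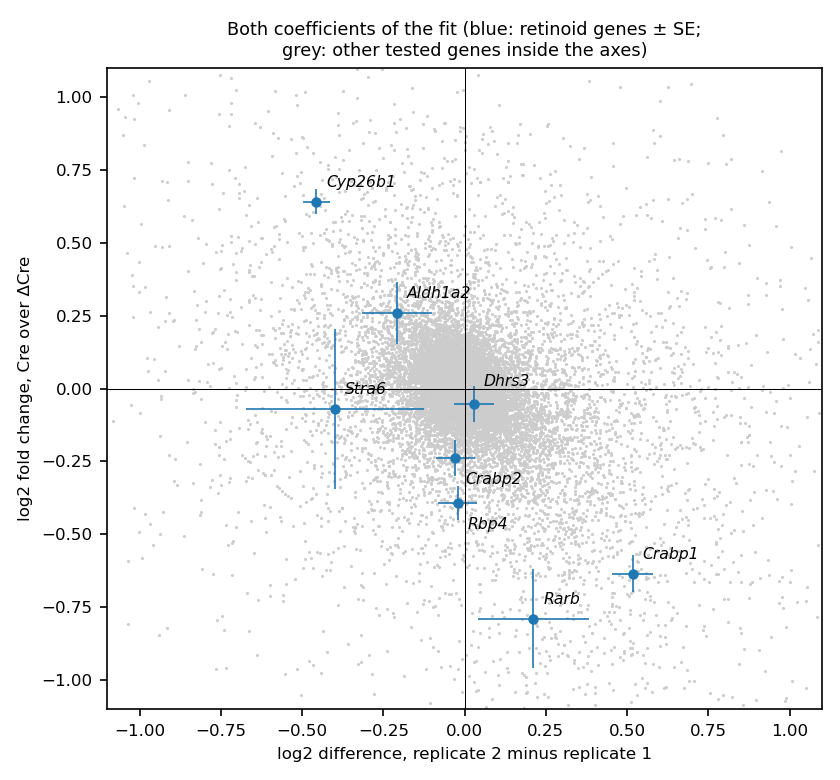
Log2 fold change of Prox1 KO label (Cre) over ΔCre control (vertical axis) against the log2 difference of replicate 2 minus replicate 1 (horizontal axis), with standard errors, for the 8 genes above the filter (blue) and for the other tested genes inside the axes (grey). Cyp26b1 lies at -0.46 and 0.64, Crabp1 at 0.52 and -0.64, and Rbp4 and Crabp2 lie near 0 on the horizontal axis.

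For the genes above the filter whose log2 values spanned over 1 between the libraries, Cyp26b1 (1.097), Crabp1 (1.15) and Rarb (1.16), the genes with the most similar profile were found as those with the smallest root mean square distance of centred log2 values over the 4 libraries, among 13944 protein-coding genes. For Cyp26b1 these were Rrm2 (distance 0.0132), a subunit of ribonucleotide reductase, Casq2 (0.0141), a calcium-binding protein of muscle, and Grhl3 (0.0267), an epithelial transcription factor. For Crabp1 they were Hmmr (0.0288), Adamts17 (0.0369) and Tprg (0.0403), and for Rarb Cdhr5 (0.0502), N4bp3 (0.0527) and Hunk (0.0578). Cyp26a1 spanned 1.13 on 2 to 5 reads and was left out. These distances are a description over 4 libraries.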

How the data were processed

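Bulk RNA-seq of 4 libraries (2 labelled Prox1 KO, 2 ΔCre controls) was analysed. The authors used STAR against mm10 on paired-end 100-base reads. The deposited signal per gene is normalized counts, obtained by dividing read counts by DESeq2 size factors. The counting tool, its strand setting and the annotation release are not given in the sources used here. A second deposited table holds the results of the authors' own comparison (fold changes with raw and adjusted p-values) and was not used. Each positive value was a whole multiple (within 0.001) of the smallest in its library, in 100% of values, so reads were recovered. They numbered 42469031 to 48524008 per library, and a gene with few reads has a larger counting error.

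Genes averaging 10 or more normalized counts (15809 of 55397) were tested on log2(normalized counts + 1), which understates changes of low genes, with limma 3.58.1 in R 4.3.3, an intensity trend, group and replicate number as terms, and Benjamini-Hochberg adjustment over all genes with a threshold of 0.05. The replicate number was a block because the methods use the MEF line as a covariate. limma moderated the variance of each gene towards the intensity trend over all genes. The SEs and p-values from limma therefore draw on other genes too, and not only on the libraries of the gene itself. By a chi-square test, libraries of a group differed by more than sampling noise in 34.3% and 35.4% of genes, so none was counted as a duplicate. On simulated counts for the 15809 genes, 200 were changed by 1 on the log2 scale between Prox1 KO and control. There limma with the block recovered 89.5% with 13 false calls, and limma without the block 82% with 0. With the block, edgeR recovered 90% with 13 false calls and DESeq2 70.5% with 0. Recovery of smaller changes, such as the 0.64 of Cyp26b1, was not tested. In the libraries themselves, limma without the block called 0 genes between the groups, against 1798 with it. How far the simulated rates hold for these libraries was not tested.

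The 9 genes and the gene lists were chosen with earlier results of these data known. The genes named are the 9, Prox1, each gene of the 5 retinoid lists past the threshold, the 2 of highest mean in each of those lists, and the 3 nearest profiles of each of the 9 that spans over 1 on the log2 scale, except Cyp26a1, which spans 1.13 but is below the filter. Some genes that this rule names are not reported here. Col1a1, Alb, Wt1, Lrat, Top2b, Xist, Rara, Rarg, Hoxb1, Cdx1, Stra8, Meis1, Meis2, Rarres1, Cyp26c1, Tat, Apoc3, Msln, Krt19, Upk1b, Muc16, Adgre1, Tyrobp and Cldn5 fall outside that rule, having been chosen with their values in view. Positions, exonic lengths and shared 100-base windows were taken from GENCODE vM21 (GRCm38, that is mm10; 55137 identifiers matched), and promoters from RefSeq on GRCm38.p6. Alternatives were no replicate block, pseudocounts of 0.1 and 10, no filter, a filter at 50, the recovered reads in DESeq2 1.42.0 or in the quasi-likelihood test of edgeR 4.0.16, quantile normalization, and each replicate left out. Per-sample columns left unused numbered 0.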

Additional observations from a re-analysis of the deposited data

How the results depend on the processing

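With no replicate block, limma called 0 genes between the groups, against 1798 with the block, with 1783 at an unadjusted p under 0.05, and that of the 51 retinoid pathway genes was 0 against 11, with 7 at an unadjusted p under 0.05. Same-numbered libraries shared their deviations, with r = 0.402 over 15809 genes (genes are not independent) and 0.331 over 15250 autosomal genes. DESeq2 with the replicate block called 471 genes between the groups and 3 of the pathway genes (Ttr, Rdh10 and Tgm2), and 398 genes between the replicate numbers against 1245 in limma, with 1 of the 8 genes (Cyp26b1) against 2. edgeR called 1800 genes between the groups. The cause was not tested. Over 9 settings, limma's included, the adjusted p of Rarres2 ranged from 0.000879 to 0.585 with 3 settings passing, and that of the other 10 pathway genes passed in 6 to 8 settings. Among the 8 genes above the filter, the log2 fold change kept its direction under each alternative that was run with both pairs. It ran from -0.81 to -0.71 for Rarb, from 0.62 to 0.64 for Cyp26b1 and from -0.07 to -0.0054 for Stra6, whose pairs differed in direction. The filters and the block cannot change the limma estimate in this balanced design, so those alternatives only repeat its value. The genes were also chosen with this comparison known, so a kept direction is a description. Leaving out either replicate gives 1 pair without a test, with ranges of 0.61 to 0.67 for Cyp26b1, -1.16 to -0.42 for Rarb, -0.81 to -0.46 for Crabp1, -0.25 to -0.23 for Crabp2, -0.40 to -0.38 for Rbp4, 0.10 to 0.42 for Aldh1a2, -0.42 to 0.29 for Stra6 and -0.12 to 0.02 for Dhrs3. Depth limits Cyp26a1 and Stra6 most.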
